A study of Mus musculus with 4 samples.

Results

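miR-140 and miR-455 are microRNAs (miRNAs) best known from cartilage. Each is cut from a hairpin precursor into 2 arms, the 5p and the 3p, and the 4 arms were taken by name from a deposited table of 1167 miRNAs. All 4 were listed. The members are mmu-miR-140-3p, mmu-miR-140-5p, mmu-miR-455-3p and mmu-miR-455-5p, written below without the prefix for mouse. The table compared the main olfactory epithelium, the odour-sensing lining of the nasal cavity, of wild-type mice with that of AC3-/- mice, which lack adenylyl cyclase 3. In olfactory sensory neurons that enzyme turns the signal of an odorant receptor into cAMP. All mice were C57BL/6 males at 3 months of age, with 2 small RNA libraries for each genotype. The labels give no cell type or promoter that limits the loss of AC3, and they leave unstated whether the replicate libraries are of different animals. A p-value therefore sets a genotype difference only against the spread between libraries, which may be technical. Messenger RNA is not measured in such libraries, so neither the genotype nor the presence of cartilage could be checked by a marker gene, and the members are called cartilage miRNAs by reputation only.

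miRNAs lower the output of messenger RNAs that pair with their seed, the bases near the 5′ end. In mice miR-140 is made in chondrocytes, under the cartilage regulator SOX9, from an intron of Wwp2, which codes for a ubiquitin ligase. Mice without miR-140 have short bones and a shortened snout, and Adamts5, a cartilage-degrading protease, is a known target of miR-140-5p. miR-455 comes from an intron of Col27a1, which codes for a cartilage collagen, and it is also known for a protective part in joint cartilage. The nasal septum and turbinates that carry the olfactory epithelium hold cartilage and bone, so a dissected epithelium can bring such tissue along. Neither miRNA is confined to cartilage.

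The mature sequences of 3 members are shown because their seeds, which set the targets, differ between the precursors and between the arms. They are given 5′ to 3′ from RefSeq (GRCm38.p6), with the seed, bases 2 to 8, in capitals. 3 of the 4 members had a mature sequence in the table used; miR-140-5p is named only.
miR-140-3p: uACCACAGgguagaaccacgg
miR-455-5p: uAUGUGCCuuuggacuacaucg
miR-455-3p: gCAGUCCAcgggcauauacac
miR-140-3p lies at chr8:107551288-107551308 on the plus strand, inside the 70-base gene Mir140 at chr8:107551244-107551313. Mir140 is in intron 16 of the principal Wwp2 transcript, which has 24 exons, and also inside the single exon of the transcript Wwp2-206. miR-455-5p at chr4:63256867-63256888 and miR-455-3p at chr4:63256904-63256924 lie on the plus strand in the 82-base gene Mir455, in intron 10 of the principal Col27a1 transcript, which has 61 exons. Each sequence occurs once in the RefSeq miRNA table. The seed of miR-140-3p recurs in miR-497b, which the authors' deposited table gives mean normalised read counts of 15.5 (AC3-/-) and 15.9 (wild type). The seed of miR-455-5p recurs in miR-5129-3p, with means of 8.00 and 5.37. Both relatives were far scarcer than the members, and neither passed the test (adjusted p = 0.990 and 0.945 in the authors' deposited table).

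The 4 arms covered a wide range of levels, and each precursor had 1 abundant arm. The authors' deposited table holds a mean normalised read count for each genotype, that is, reads scaled by a size factor so that libraries of different depth can be compared. miR-140-3p had a mean of 34917 in AC3-/- against 48325 in wild type and was the 34th most abundant of the 1167 miRNAs. miR-455-5p had 4806 and 5317 and was the 84th. miR-140-5p had 3838 and 4338 and was the 93rd. miR-455-3p, the minor arm of its precursor, had 291.9 and 343.0 and was the 225th. Adaptor ligation and PCR favour some sequences, so this order is an order of reads and not of molecules. As a share of the table total, the 4 members together made up 0.502% in AC3-/- and 0.473% in wild type.

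All 4 arms had a lower mean in AC3-/- than in wild type, by small amounts, and none passed the test of the genotypes. The log2 fold changes in the authors' deposited table, which are shrunken toward 0, were -0.41 for miR-140-3p (p = 0.231, adjusted p = 0.940), -0.16 for miR-140-5p (p = 0.522, adjusted p = 0.940), -0.21 for miR-455-3p (p = 0.457, adjusted p = 0.940) and -0.14 for miR-455-5p (p = 0.604, adjusted p = 0.944). At an adjusted p of 0.05 the table called 0.0857% of its rows, and at an unadjusted p of 0.05 it called 3.51%; no member was among either. A log2 fold change below 0 was shared by 50.5% of all rows and by 60.8% of the 296 rows with a mean of at least 100, so the common direction of the 4 members is not far from the background, and arms of 1 precursor are not separate observations. The direction also depended on the scaling. The wild-type means summed to 1.41 times the AC3-/- means, and as percents of the table total all 4 arms were higher in AC3-/-, by log2 ratios of 0.03 for miR-140-3p, 0.32 for miR-140-5p, 0.26 for miR-455-3p and 0.35 for miR-455-5p. In bulk tissue, fewer cells of a type and less RNA in each cell cannot be told apart.

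Values of single libraries were worked back from the deposited means, because each mean is a sum of whole reads of 2 libraries, each weighted by a fixed step. The letters a and b name the libraries of a genotype and stand for no replicate number. miR-140-5p, the arm that targets Adamts5, had 3881 normalised reads in AC3-/- library a, 3795 in AC3-/- library b, 4319 in wild-type library a and 4356 in wild-type library b. The 2 AC3-/- libraries lay below both wild-type libraries, and the values came from 4455, 4169, 4065 and 3725 reads. Counting error alone gave each library a 95% exact Poisson interval, the widest of which ran from 4217 to 4498 in wild-type library b, and the AC3-/- intervals, from 3680 to 3997 between them, did not reach the wild-type ones. Reads carry no molecular identifiers, so such intervals cover counting error only.

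miR-455-5p, the abundant arm of its precursor, had 4624 and 4988 normalised reads in AC3-/- and 5301 and 5333 in wild type. Here too both AC3-/- libraries lay below both wild-type libraries. miR-455-3p had 277.0 and 306.8 in AC3-/- and 341.1 and 345.0 in wild type, from 318, 337, 321 and 295 reads. Its genotypes did not overlap either, but its counting intervals did, the AC3-/- ones running from 247.4 to 341.3 and the wild-type ones from 304.8 to 386.7. Groups that did not overlap, with AC3-/- lower, were found in 3 of 3 members with 4 library values, against 17.4% of the 253 miRNAs with a mean of at least 100; 2 of the 3 members are arms of 1 hairpin. Without wild-type library b the count had to stay 3 of 3, because members below both wild-type libraries are below either one alone. The share of the 253 was then 40.3%.

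limma, fitted over the 449 miRNAs that had library values and averaged 10 or more, did not call these differences. It gave log2 differences, AC3-/- minus wild type, of -0.18 with a standard error of 0.24 for miR-140-5p, -0.23 with 0.32 for miR-455-3p and -0.15 with 0.23 for miR-455-5p, each with an adjusted p of 0.932. It called 0% of the 449 at an adjusted p of 0.05 and 3.56% at an unadjusted p of 0.05, with 0 of the 3 members in either. limma takes much of its spread from the other miRNAs, which varied more between libraries than these did. An exact permutation test of 2 libraries against 2 gave a two-sided p of 0.33 for each of the 3 arms, which is the smallest it can give.

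**Figure D1:**
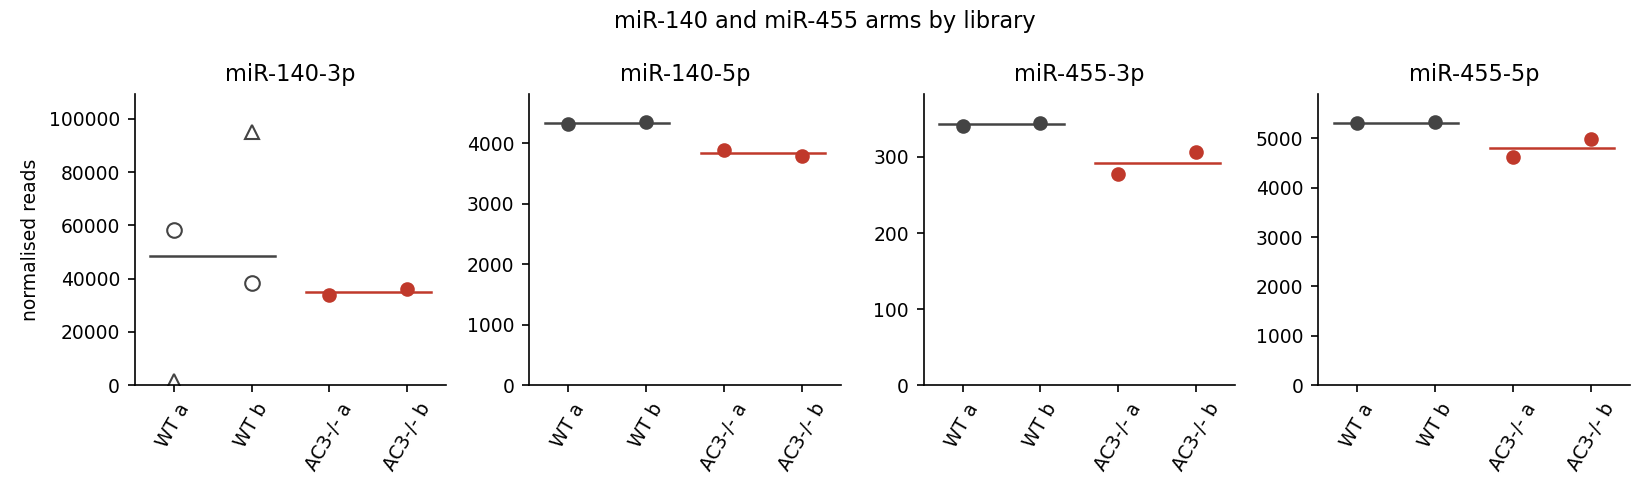
Normalised reads (vertical axis, from 0) of each arm in the 4 libraries, with wild type (WT) in grey and AC3-/- in red; filled points are library values, lines are genotype means, and the open circles and open triangles for miR-140-3p are the 2 pairs of wild-type values that give the deposited mean. For miR-140-5p, miR-455-3p and miR-455-5p both AC3-/- libraries lie below both wild-type libraries, and the wild-type points nearly coincide.

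The wild-type values of miR-140-3p could not be settled. Its AC3-/- mean had 1 solution, 33790 normalised reads in library a and 36044 in library b. Its wild-type mean had 2 solutions. One put 58102 normalised reads in library a and 38548 in library b, 1.51-fold apart. The other put 1796 and 94854 there, 52.8-fold apart. Among the 253 miRNAs that had library values and averaged 100 or more, the widest gap between the wild-type libraries was 18.8-fold. With the closer pair, both AC3-/- libraries lay below both wild-type libraries, and the difference was carried by library a: without it the log2 ratio of AC3-/- to wild type was -0.14, and without library b it was -0.73. With the wider pair the genotypes overlapped, and the log2 ratio was -1.44 without library a and 4.28 without library b.

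The 3 members with 4 library values differed hardly at all between the wild-type libraries, although those libraries differed widely in other miRNAs. The wild-type libraries lay 1.008-fold apart for miR-140-5p, 1.011-fold for miR-455-3p and 1.006-fold for miR-455-5p. Counting error alone leaves room for wider gaps. For each arm, the value of either wild-type library lay inside the exact Poisson interval of the other. For miR-455-3p, from 321 and 295 reads, those intervals ran from 304.8 to 380.5 and from 306.7 to 386.7. Part of this closeness may therefore be luck. Among miRNAs of a like mean, from 0.5 to 2 times that of the member, the median gap between the wild-type libraries was 1.52-fold around miR-140-5p (59 miRNAs), 1.43-fold around miR-455-3p (92) and 1.40-fold around miR-455-5p (53), and 0 of these were as close as the member. Over the whole range of means of at least 100, 2 of 250 other miRNAs (0.8%) lay within the 1.011-fold of the member farthest apart. That limit was set by the members themselves, so the share is a description. The median log2 ratio of wild-type library b over a was -0.02 over the 253 miRNAs, so the members lay near the middle of the ratios that the size factors set.

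The AC3-/- libraries were closer to each other than the wild-type libraries in general, and there the members did not stand out in the same way. miR-140-5p lay 1.02-fold apart between the AC3-/- libraries, with 9 of 59 miRNAs of a like mean closer together. The gaps were 1.11-fold for miR-455-3p and 1.08-fold for miR-455-5p, with 22 of 92 and 14 of 53 miRNAs of a like mean closer together. The median gap over the 253 miRNAs was 1.19-fold between the AC3-/- libraries and 1.44-fold between the wild-type libraries, and 6 and 56 of them lay at least 2-fold apart.

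**Figure D2:**
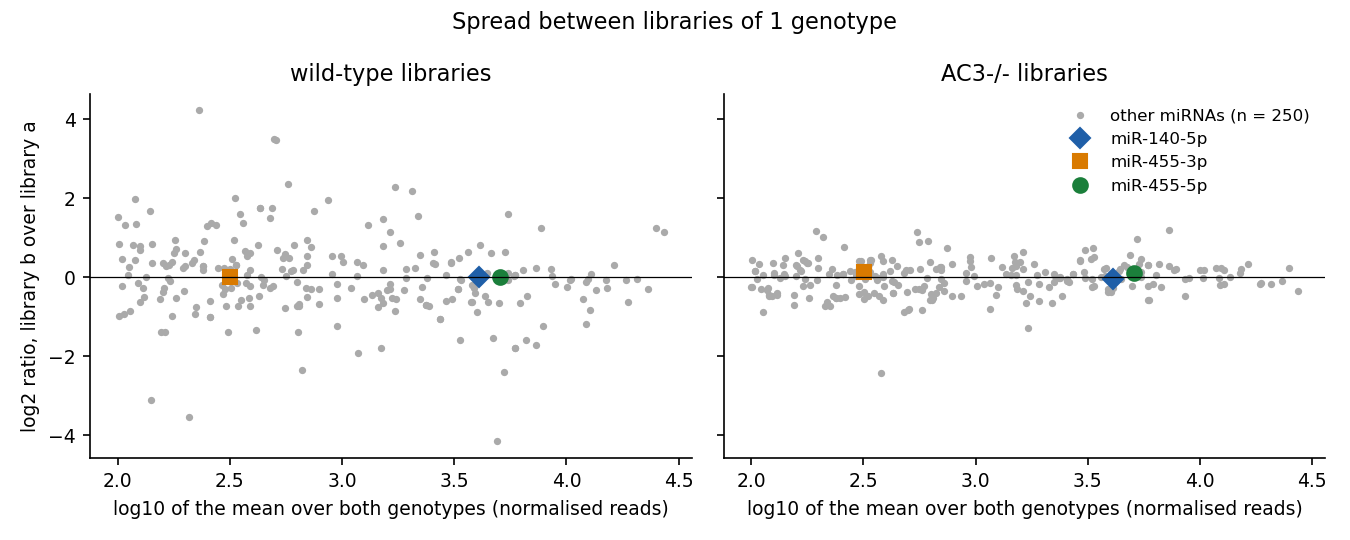
Log2 ratio of library b over library a (vertical axis) against the log10 of the mean level (horizontal axis, normalised reads) for miRNAs that had library values and averaged 100 or more, in wild type on the left and AC3-/- on the right. Grey points are the 250 other miRNAs; the 3 coloured symbols, miR-140-5p, miR-455-3p and miR-455-5p, lie at 0 in wild type, where other miRNAs spread up to 18.8-fold.

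The 2 precursors differed in which arm was abundant. For miR-140 the 3p arm exceeded the 5p arm 9.10-fold in AC3-/- and 11.1-fold in wild type, by the ratio of the deposited means. For miR-455 it was the 5p arm, by 16.5-fold in AC3-/- and 15.5-fold in wild type. Among 141 other precursors with both arms at a mean of at least 10, the 3p arm was higher in wild type for 58 and the 5p arm for 83, with a median of 13.9-fold between the arms, and 66 and 72 of the 141 had a smaller fold between arms than miR-140 and miR-455. The 5p arms of the 2 precursors kept a similar proportion in each library: miR-140-5p had 0.839 and 0.761 times the normalised reads of miR-455-5p in AC3-/- and 0.815 and 0.817 times in wild type. These are proportions of reads, which carry the ligation bias of each sequence.

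The arm choice of miR-455 differed little among the 4 libraries. The 3p arm made up 5.65% of the reads of both arms in AC3-/- library a (95% exact interval 5.06 to 6.29), 5.79% in AC3-/- library b (5.21 to 6.42), 6.05% in wild-type library a (5.42 to 6.72) and 6.08% in wild-type library b (5.42 to 6.79). Both AC3-/- shares were below both wild-type shares, but all 4 counting intervals overlapped. Overlap of separate intervals does not decide whether the shares differ, and reads pooled by genotype were not tested. The log2 ratio of the 3p over the 5p arm was lower in AC3-/- by 0.09, a difference of -0.09 (exact permutation test, two-sided p = 0.33, the smallest possible), and 19 of 141 other precursors shifted less between the genotype means.

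The arm choice of miR-140 was close in 3 of the 4 libraries if the closer wild-type pair holds. The 3p arm made up 89.7% of the reads of both arms in AC3-/- library a (95% exact interval 89.4 to 90.0), 90.5% in AC3-/- library b (90.2 to 90.7) and, with the closer pair, 93.1% in wild-type library a (92.9 to 93.3) and 89.8% in wild-type library b (89.5 to 90.2). On that reading wild-type library a was the high one, and wild-type library b lay between the AC3-/- libraries. The difference in the log2 arm ratio, AC3-/- minus wild type, was -0.29 from the deposited means, a shift larger than that of 60 of 141 other precursors. Over libraries with the closer pair it was -0.26 (exact permutation test, two-sided p = 0.667), and without wild-type library a it was 0.04, of the opposite sign. With the wider pair the 3p shares in wild type were 29.4% and 95.6%, on either side of the AC3-/- shares (difference 1.60, exact permutation test, two-sided p = 1). So a genotype difference in the arm choice of miR-140 did not hold up against the spread between libraries under either pair.

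**Figure D3:**
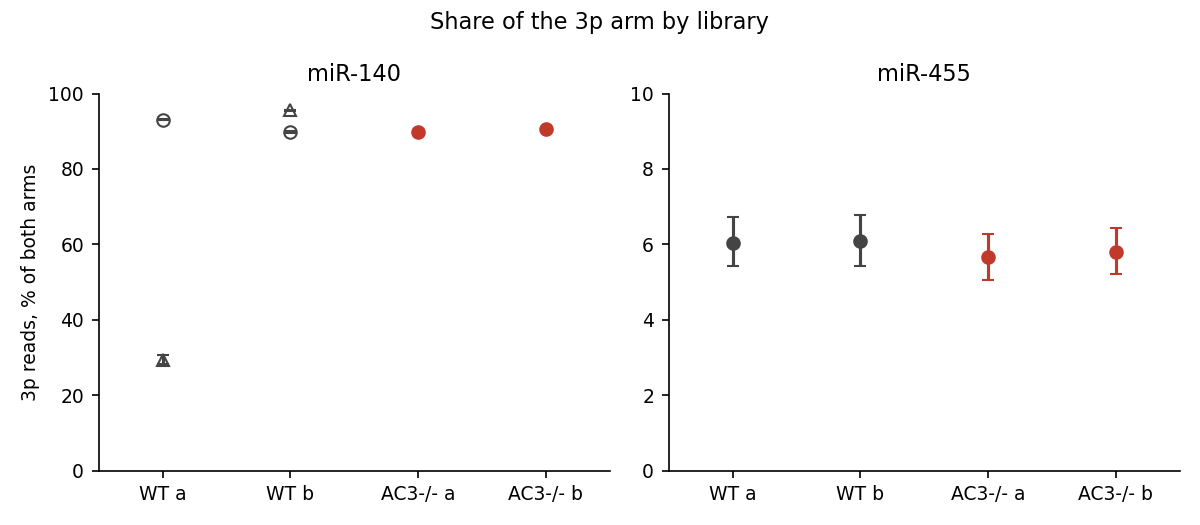
Reads of the 3p arm as a percent of the reads of both arms (vertical axis) in each library, for miR-140 on the left (axis to 100%) and miR-455 on the right (axis to 10%); bars are 95% exact intervals, smaller than the symbol where not visible, open circles and open triangles show the closer and the wider wild-type pair for miR-140, grey is wild type (WT) and red AC3-/-. miR-455 stays between 5.65% and 6.08%, while miR-140 is near 90% in the AC3-/- libraries.

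The miRNAs whose 4-library pattern was most like that of the members included the members themselves. Likeness was the root-mean-square difference between log2 values, each centred on its own mean over the 4 libraries, among 252 other miRNAs with a mean of at least 100. The 3 nearest to miR-455-5p were miR-203b-5p (0.04), miR-455-3p (0.05) and miR-140-5p (0.05), against a median of 0.30 for all. The 3 nearest to miR-455-3p were miR-455-5p (0.05), miR-203b-5p (0.06) and miR-140-5p (0.07). Nearest to miR-140-5p were miR-203b-5p (0.02), miR-1198-5p (0.03) and let-7e-5p (0.04), with miR-455-5p in place 4 and miR-455-3p in place 8. miR-203b-5p had 2233 and 2252 normalised reads in AC3-/- and 2554 and 2528 in wild type, also without overlap. Values of 4 libraries share their size factors, and a flat pattern is near every other flat pattern.

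Other miRNAs linked to cartilage did not move as 1 group with the members. Of 7 listed, 5 were in the table, 3 higher and 2 lower in AC3-/-, and 0 passed the adjusted p of 0.05. The median log2 fold change of the 5 was 0.18 in the authors' deposited table against -0.01 over all rows. Among the 3 higher was miR-337-3p, which rested on 1 and 4 reads in the AC3-/- libraries, with 0 in either wild-type library. The rest of the list split evenly by direction, so the count and the median both hang on that scarce miRNA. miR-148a-3p, also abundant in many other tissues, had the highest mean over both genotypes of all miRNAs, with a mean of 1501741 in AC3-/- against 1301717 in wild type (log2 fold change 0.18). miR-27b-3p had 124723 and 142627 (-0.17). miR-365-3p had 191.7 and 245.8 normalised reads in AC3-/- and 95.6 and 183.6 in wild type (0.51), with wild-type library a the lowest. miR-337-5p had 41.8 and 27.3 against 53.1 and 51.5 (-0.48).

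Mesenchymal miRNAs, which mark the fibroblasts and connective tissue that surround cartilage, did not pass the test either. 5 of 6 listed were in the table, 2 higher and 3 lower in AC3-/-. Their median log2 fold change was -0.19, and 0 passed. In the authors' deposited table miR-199a-3p had a mean of 48652 in AC3-/- against 61483 in wild type (log2 fold change -0.30), and miR-199a-5p 22980 and 27300 (-0.21). miR-214-3p, made from the same transcript as miR-199a, had 2552 and 3526 normalised reads in AC3-/- and 3887 and 3166 in wild type, so its genotypes overlapped. miR-199b-5p had 4682 and 3620 in AC3-/- and 4157 and 3187 in wild type, overlapping too.

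Wild-type library b stood apart in markers of several other cell types, while miR-140-5p and the arms of miR-455 hardly differed between the wild-type libraries. These 3 arms together had 8782 and 9090 normalised reads in AC3-/- and 9962 and 10034 in wild type. The 3 of 5 mesenchymal miRNAs with values in all libraries summed to 8629 and 8981 in AC3-/- and 9752 and 7727 in wild type. These sums leave out the most abundant ones, miR-199a-3p and miR-199a-5p. Of these, miR-199a-5p had values for wild type only, 32690 in library a and 21909 in library b. The 5 leukocyte miRNAs, all of which had library values, summed to 14116 and 17682 in AC3-/- and 16553 and 5197 in wild type. 5 of 6 miRNAs of multiciliated cells summed to 13839 and 26206 against 30579 and 5971, and 3 of 6 miRNAs of the sensory-organ cluster miR-183/96/182 to 1374 and 660 against 1318 and 6309. The multiciliated sums lack miR-34c-5p, the most abundant of that list, with a deposited wild-type mean of 225941. The sensory-cluster sums hold 3p arms only. They lack miR-183-5p, miR-182-5p and miR-96-5p, with deposited wild-type means of 1304447, 1130689 and 277724. Between the wild-type libraries the sums differed 3.19-fold for leukocyte, 5.12-fold for multiciliated and 4.79-fold for sensory-cluster miRNAs. The last 2 folds therefore describe the scarcer miRNAs of their lists and not the whole lists. The sums of the 3 arms differed 1.007-fold. That figure leaves out miR-140-3p, which made up 82.9% of the wild-type sum of the 4 members. With its closer pair, the 4 members summed to 42572 and 45134 in AC3-/- and 68063 and 48582 in wild type, 1.40-fold apart between the wild-type libraries, with library b the lower; with its wider pair they were 8.92-fold apart. No defining miRNA of these 3 lists was at 0 in a genotype mean. Their part in the small genotype difference of the 3 arms was not tested; without wild-type library b the log2 ratio of the means was -0.17 for miR-140-5p, -0.22 for miR-455-3p and -0.14 for miR-455-5p, against -0.18, -0.23 and -0.15 with it. Striated muscle, another tissue that dissection can bring along, differed 1.06-fold between the wild-type sums and 1.49-fold between the AC3-/- sums.

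**Figure D4:**
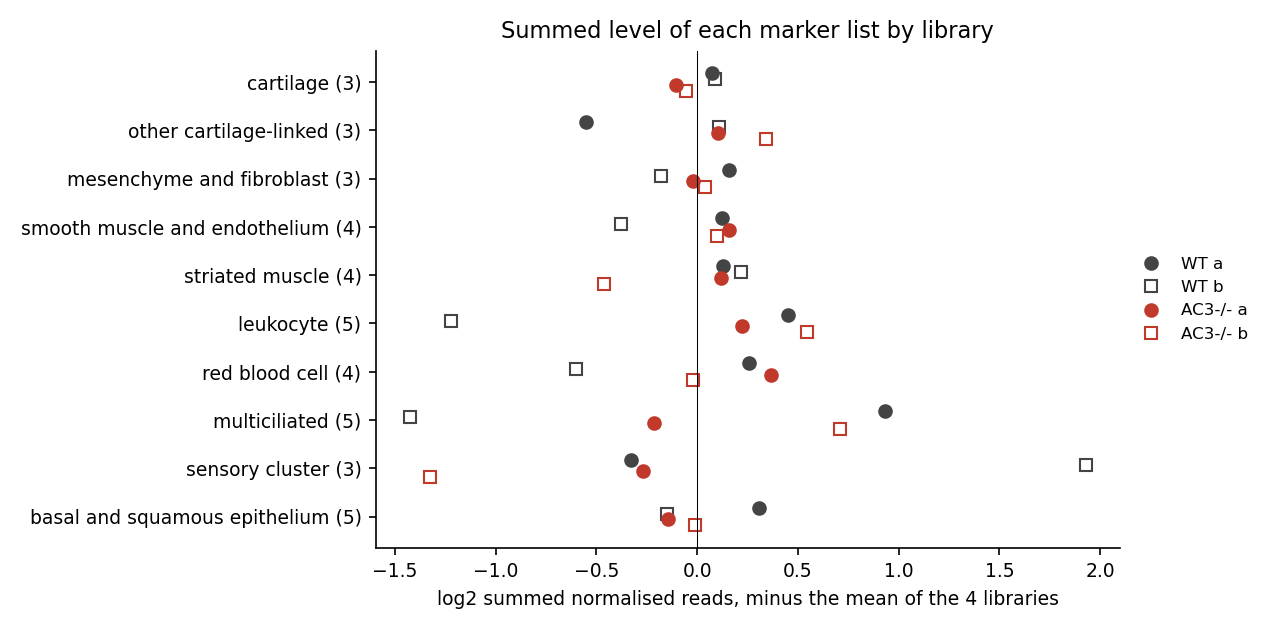
Summed normalised reads of each marker list in each library, as log2 minus the mean of the 4 libraries (horizontal axis), with the number of miRNAs that have library values in brackets; grey is wild type (WT), red AC3-/-, filled circles library a and open squares library b. Only miRNAs with library values are summed, so the most abundant arms of several lists are left out. The cartilage row holds miR-140-5p and both arms of miR-455 and leaves out miR-140-3p; those 3 arms span 1.14-fold over the 4 libraries, against 1.60-fold for all 4 members with the closer pair, and wild-type library b lies apart for the leukocyte, multiciliated and sensory-cluster lists.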

How the data were processed

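Small RNA was sequenced from 4 samples, 2 wild type and 2 AC3-/-, grouped by sample title. Bowtie, DESeq 1.8.3 and GRCm38 are named in the submitters' processing notes, without saying what each was used for (counting, filters and miRBase release not given in the sources used here). In the authors' deposited table the columns of abundance hold a signal, a mean normalised read count for each genotype (per the file headers). Its other columns are the authors' log2 fold change with a p-value and an adjusted p-value by the authors, which are the main test here. Depth, summed over both libraries, was between 19201686 and 20063529 reads for AC3-/- and between 21071945 and 23190561 for wild type. No per-sample columns were in the table.

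Library reads were recovered as the whole numbers that give each mean within its rounding (size factors 1.148 and 1.099 for AC3-/-, 0.941 and 0.855 for wild type). In AC3-/- 96.4% of rows and in wild type 97.2% had 1 solution, including every mean under 22980; in 4 simulated tables every row with 1 solution was right (1132 of 1132, 1130 of 1130, 1131 of 1131 and 1134 of 1134). limma 3.58.1 (R 4.3.3; trend on intensity) was fitted to 449 miRNAs of mean 10 or more, on the log2(normalised value + 1) scale, with Benjamini-Hochberg adjustment; adding 1 understates changes of low miRNAs. On data simulated for this comparison, with 485 miRNAs and a dispersion of 0.05, it called 99 of 99 miRNAs changed 4-fold, 58 of 98 changed 2-fold and 4 unchanged ones. The simulation gave every miRNA that 1 dispersion. In the real wild-type libraries 56 of 253 miRNAs were at least 2-fold apart, so these rates are not the power reached in the real data. Poisson and Clopper-Pearson exact intervals and exact permutation tests used SciPy 1.17.1.

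Named miRNAs were all 4 members, the 4 most abundant miRNAs of each connective-tissue list, the 3 nearest by likeness and those sharing a seed. A few others were named because a list count or sum depended on them. The members and lists were chosen with earlier results of these data known. Alternatives were other thresholds, pseudocounts, filters and scalings, and each library left out. A count test on the recovered reads was not run.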

Additional observations from a re-analysis of the deposited data

How the results depend on the processing

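No member was called under any threshold, filter, pseudocount or left-out library tried: 0 of 4 in the authors' table and 0 of 3 in limma, including the fits without wild-type library a or b, in which limma called 63 and 2 of 449 miRNAs. A fit without 1 library takes the lone library to vary like the other pair.

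Scaling to the table total turned every direction, to log2 ratios of 0.027 (miR-140-3p), 0.32 (miR-140-5p), 0.26 (miR-455-3p), 0.35 (miR-455-5p) and 0.084 (sum of the members, -0.41 as deposited); leaving out the 10 most abundant rows from the total gave -0.18 for the sum. Rows with a mean of at least 100 had a median log2 ratio of -0.10. Centring on these rows gave -0.37 (miR-140-3p), -0.077 (miR-140-5p), -0.13 (miR-455-3p) and -0.047 (miR-455-5p). Without miR-140-3p the sum gave -0.16.

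With each library left out in turn, log2 ratios ran from -0.19 to -0.16 for miR-140-5p, -0.31 to -0.16 for miR-455-3p and -0.20 to -0.092 for miR-455-5p, and the miR-455 arm-ratio difference from -0.11 to -0.069. With both possible wild-type pairs, an alternative chosen after seeing the data, the ranges were -1.44 to 4.28 for miR-140-3p, -1.26 to 4.45 for the miR-140 arm-ratio difference and -1.26 to 1.90 for the sum; with the closer pair, leaving out wild-type library a gave 0.04 for that arm-ratio difference, and leaving out libraries a and b gave -0.15 and -0.63 for the sum. Without wild-type library b, chosen likewise, both AC3-/- libraries were lower in 40.3% of 253 miRNAs. The 3 of 3 members could not change in that setting, since they lay below both wild-type libraries. No paired analysis was possible because the recovered libraries carry no replicate number. Count tests were not run, and only 1 row exists for each arm, so isomers could not be varied.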
